A study of Arabidopsis thaliana with 18 samples.

Results

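Late embryogenesis abundant (LEA) protein genes of Arabidopsis thaliana were followed in germinating seed of 8 transcription factor mutants and of Col-0, the wild-type accession. The 50 members were taken by locus identifier from the gene count table, as the family of LEA_1 to LEA_5, dehydrin, PvLEA18, seed maturation protein (SMP) and AtM classes. All 50 were among the 37336 genes of the table, 48 had at least 1 read, and 42 passed the filter on low counts and were among the 19100 genes tested. The LEA_4 class held 18 members, dehydrins 10, SMP 6, LEA_3 4, LEA_1 and LEA_2 3 each, and LEA_5, PvLEA18 and AtM 2 each. The mutants vnd2, smb, wrky14, obp1, lmi1, hat2, athb25 and athb15 are in the Col-0 background, and the study describes each as a homozygous line with a single T-DNA insertion, a stretch of bacterial plasmid DNA, in the gene it is named for. Each mutant is thus 1 insertion line, so that a change in a line cannot be told apart from other differences that line carries. Seed of every genotype, Col-0 included, had been stratified for 48 h at 4 °C in the dark and then kept for 24 h in continuous light at 22 °C (24 h SL). The study found all of these lines but hat2 late to germinate. For the late lines a change at 24 h SL cannot be told apart from an earlier stage of germination. There were 2 libraries per genotype, made from seed pooled over several parent plants, and nothing says that the duplicates came from separate pools, so that p-values measure the spread between these libraries, which may be technical.

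LEA proteins are small, mostly hydrophilic proteins that build up in the embryo as the seed dries and help to protect membranes and enzymes during desiccation. Many are largely unfolded in water and take on structure as water is lost. In Arabidopsis their transcripts are switched on in late seed maturation by abscisic acid (ABA), through the regulators ABI3 and ABI5, are stored in the dry seed, and are cleared as the seed germinates. Several members, above all among the dehydrins, are also induced by cold or drought in vegetative tissue.

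The libraries held 18146206 to 33111743 counts. The targeted gene was lower than in Col-0 in athb15, athb25, hat2, lmi1 and smb, with log2 fold changes of -1.19, -3.31, -1.02, -2.45 and -2.53, all called. VND2 had a log2 fold change of -0.75 in vnd2 that was not called (edgeR adjusted p = 0.414). OBP1 was not lower in the libraries labelled obp1, at 0.55 (edgeR adjusted p = 0.0262), and WRKY14 was higher in the libraries labelled wrky14, at 5.01 (SE 0.27, edgeR adjusted p = 3.38e-09). The vnd2 duplicates stood apart from each other for this family: 38 of the 42 tested members were higher in replicate 1, by a median ratio of 1.355, as were 12 of 12 seed reserve genes (storage proteins and oleosins), by a median ratio of 1.503. In the libraries labelled wrky14 37 of 42 members were higher in replicate 1 (median ratio 1.243), and in Col-0 32 of 41 members with a count in both (1.131). Whole seed was sampled, and both embryo reserve genes and endosperm genes were detected in every library, with at least 17 and at least 602 counts per gene.

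LEA transcripts were still abundant at 24 h SL. Together the 50 members made up 0.6436% to 1.001% of each library's counts. Per length, LEA7 (AT1G52690; chromosome 1, 19619724 to 19621534, plus strand) was the highest of the family, with a mean of 869 RPKM (reads scaled to exon length and to library size), which ranked it 66 among the 19100 genes tested. AT3G02480 and AT3G15670, both of the LEA_4 class as LEA7 is, had means of 845 and 842 RPKM. The most abundant LEA_1 gene was LEA4-5, a protein of the water-deficit response, with 763 RPKM. In the LEA_3 class it was SAG21, a small mitochondrial LEA protein first known from senescing leaves, with 611 RPKM. Among dehydrins HIRD11 was highest on the RPKM scale (285), ahead of the ABA-responsive RAB18 (213). EM1 and EM6, the Em proteins of class LEA_5 that are among the most abundant proteins of dry seed, had 117 and 88.3 RPKM. AT2G44060 led the LEA_2 class with 87.5 RPKM, AT2G23110 the PvLEA18 class with 79.4 RPKM, M17 the AtM class with 90.8 RPKM and ECP31 the SMP class with 23.0 RPKM.

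**Figure D1:**
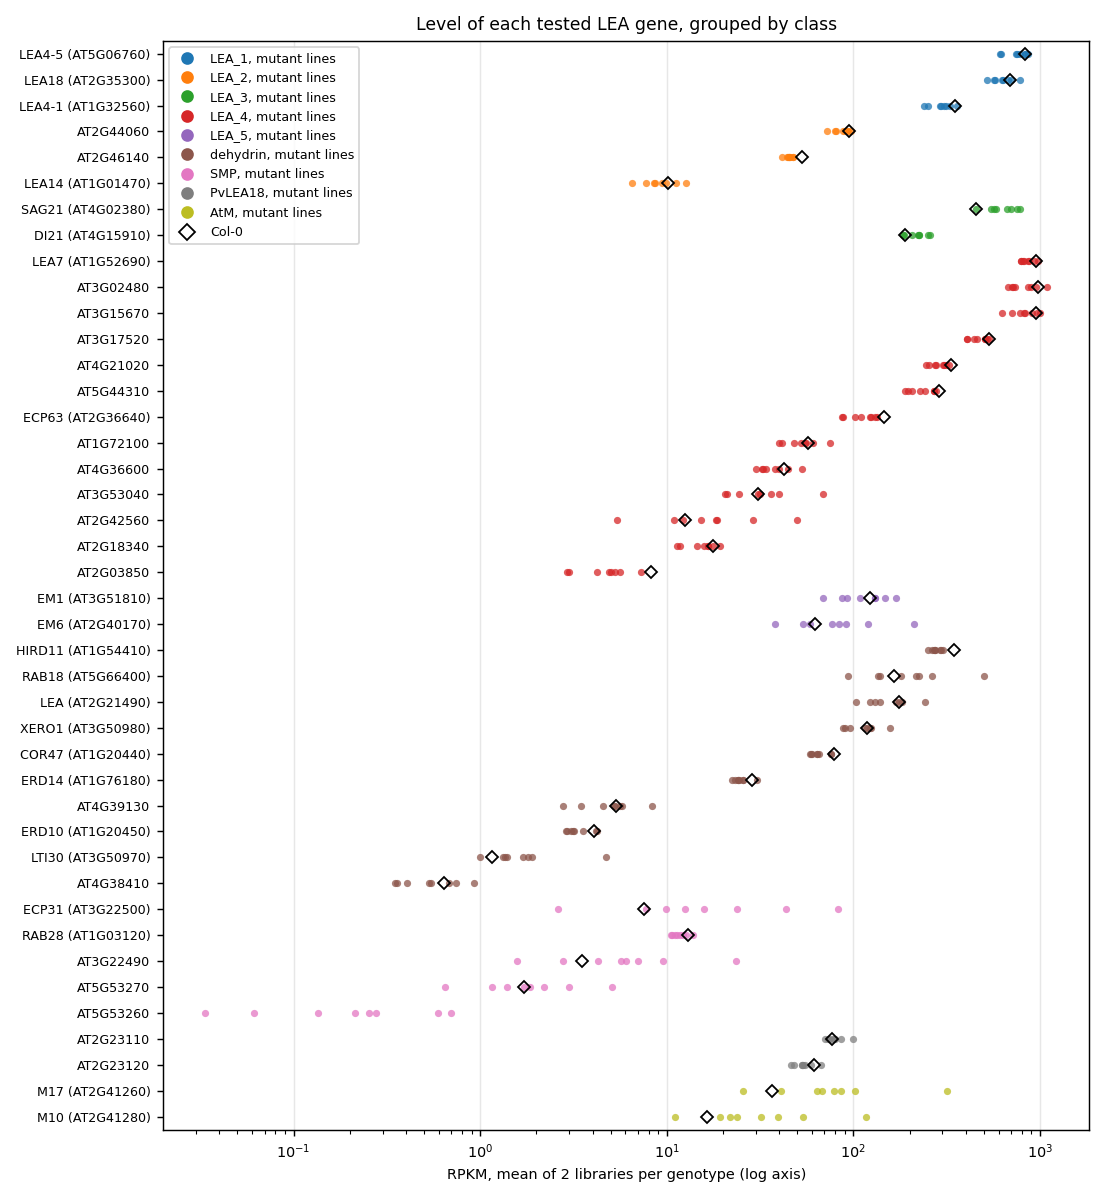
Level of the 42 tested LEA genes in RPKM on a log axis, with a coloured point for each mutant line (mean of 2 libraries) and an open diamond for Col-0 (none for AT5G53260, which had no count there), grouped by class. The abundant LEA_1 and LEA_4 genes lie close together over the 9 genotypes, whereas the highest genotype mean was 12.3 times the lowest for M17, 31.9 times for ECP31 and 9.15 times for AT2G42560, against 1.24 times for LEA7.

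The other 8 members were not tested. COR15A and COR15B, cold-induced proteins of the chloroplast, held 2 and 17 counts over all 18 libraries. AT5G27980 held 33 counts, LEA3 6, AT2G03740 5 and AT5G53820 4. AT4G13230 and AT3G53770 had 0 counts in every library, which allows up to 3 counts a library, or 0.0906 to 0.165 CPM (counts scaled to library size) by depth and for counting error only. AT5G53260 passed the filter only through vnd2 replicate 1 and smb replicate 1, the libraries where it was highest, so that nothing is read from its tests and counts are also given without it. Exons of 6 members overlap with a neighbouring gene, RAB18 over 11 bases, AT3G22490 over 25, AT5G27980 over 26, AT2G18340 over 98, AT2G23120 over 144 and COR15B over 468. The strand setting of the counting is not stated, nor how reads with several matches were treated, so that counts of these genes and of neighbouring family copies are uncertain.

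What stands before these genes was read from the genome. Promoter windows were the 250 bases before the annotated gene start in RefSeq assembly TAIR10.1, whose nuclear chromosomes have the coordinates of TAIR10. The ABA response element core ACGTG, the letters that ABI5-type bZIP factors bind, was on either strand of 34 of 42 tested members (81.0%) and of 3 of the 8 not tested (37.5%), against 22.9% of the 27443 windows of all protein-coding genes. The G-box CACGTG, which holds that core on both strands and so counts as 2 matches of it, was in 47.6% of tested members, against 6.49% of all windows. The RY element CATGCA of B3 factors such as ABI3 was in 19.0%, against 8.45%, and the core CCGAC of sites for CBF cold factors was in 40.5%, against 3289 of all 27443 windows. A match is a run of letters, and no binding was measured.

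The windows of 5 members that the results turn on are given 5′ to 3′ on the strand of the gene. Capitals mark ACGTG or its complement CACGT. EM6, AT2G42560 and LEA7 carry the ABA core 3, 5 and 5 times, and M17 and SAG21 do not carry it.
EM6 (chr2:16780369-16780618, minus strand): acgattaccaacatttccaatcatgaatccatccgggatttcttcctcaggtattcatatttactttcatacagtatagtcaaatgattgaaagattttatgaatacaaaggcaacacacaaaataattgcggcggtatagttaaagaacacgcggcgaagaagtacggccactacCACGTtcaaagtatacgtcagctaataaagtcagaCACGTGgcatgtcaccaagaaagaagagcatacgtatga
AT2G42560 (chr2:17716913-17717162, minus strand): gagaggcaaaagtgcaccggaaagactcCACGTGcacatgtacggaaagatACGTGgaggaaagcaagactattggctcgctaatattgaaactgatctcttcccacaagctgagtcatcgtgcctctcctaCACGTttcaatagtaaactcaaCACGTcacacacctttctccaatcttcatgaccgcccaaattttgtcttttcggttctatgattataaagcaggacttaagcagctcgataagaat
LEA7 (chr1:19619474-19619723, plus strand): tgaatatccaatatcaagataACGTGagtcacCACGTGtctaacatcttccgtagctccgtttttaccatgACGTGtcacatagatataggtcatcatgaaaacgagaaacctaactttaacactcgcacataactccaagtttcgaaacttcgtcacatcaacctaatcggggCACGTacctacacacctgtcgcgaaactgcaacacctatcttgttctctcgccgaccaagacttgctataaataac
M17 (chr2:17206202-17206451, plus strand): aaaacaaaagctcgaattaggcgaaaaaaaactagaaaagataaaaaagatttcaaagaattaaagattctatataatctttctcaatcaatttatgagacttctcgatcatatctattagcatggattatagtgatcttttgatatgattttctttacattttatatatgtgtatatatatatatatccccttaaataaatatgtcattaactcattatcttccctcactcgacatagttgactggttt
SAG21 (chr4:1047106-1047355, minus strand): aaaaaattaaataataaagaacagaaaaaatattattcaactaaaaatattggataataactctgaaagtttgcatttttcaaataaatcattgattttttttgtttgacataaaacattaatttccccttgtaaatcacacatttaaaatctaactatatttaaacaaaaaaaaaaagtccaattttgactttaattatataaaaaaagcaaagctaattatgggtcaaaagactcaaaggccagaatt

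The comparisons asked how gene expression in germinating seed differed in each mutant line from that in Col-0. Of 336 tests of a member in a mutant, 34 were called at an adjusted p under 0.01 by edgeR's quasi-likelihood test with Benjamini-Hochberg adjustment over all 19100 genes, and 20 members were called in at least 1 mutant (33 of 328 tests and 19 members without AT5G53260). In vnd2 13 of 42 members were called, 11 higher and 2 lower, against 4.13% of all genes tested (1.97% higher and 2.16% lower). Without AT5G53260, a member admitted by its high libraries, 12 of 41 were called in vnd2, 10 higher and 2 lower. In smb 5 members were called, 4 higher and 1 lower (background 2.15%, with 0.618% higher and 1.53% lower). The libraries labelled wrky14 had 3 members higher (background 1.16%, with 0.246% higher and 0.911% lower), athb25 had 1 higher and 3 lower (background 1.62%, with 0.984% higher and 0.639% lower), and the libraries labelled obp1 had 1 higher and 5 lower (background 3.92%, with 2.51% higher and 1.41% lower). In lmi1 2 members were higher (background 1.1%, with 0.476% higher and 0.623% lower), and in hat2 1 member was higher (background 0.66%, with 0.393% higher and 0.267% lower). In athb15 0 members were called by edgeR (background 0.147%, with 0.0366% higher and 0.11% lower) or by DESeq2, with 11 at an unadjusted p under 0.05. The share of all genes at an unadjusted p under 0.05 was not counted, so that nothing is read from such counts here or below. The median log2 fold change of the 42 members was 0.12 in vnd2 and 0.05 in lmi1, -0.02 in athb15, -0.04 in smb, -0.19 in the libraries labelled wrky14, -0.27 in hat2, and -0.28 both in athb25 and in the libraries labelled obp1, where that of all genes tested was within 0.02 of 0. Without AT5G53260 it was 0.1 in vnd2, 0.04 in lmi1, -0.03 in athb15 and -0.06 in smb. It was then -0.28 in hat2 and athb25, -0.29 in the libraries labelled obp1 and -0.19 in those labelled wrky14. In hat2 37 of 42 members had a log2 fold change below 0, where 46.8% of all genes tested were above 0. Only 1 member was called there, and that one higher. A test of any difference among the 9 genotypes called 26 members, 61.9% of those tested (25 of 41 without AT5G53260), against 11.9% of all genes. All 8 comparisons use the same Col-0 libraries, and calls in several mutants are not independent of each other.

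**Figure D2:**
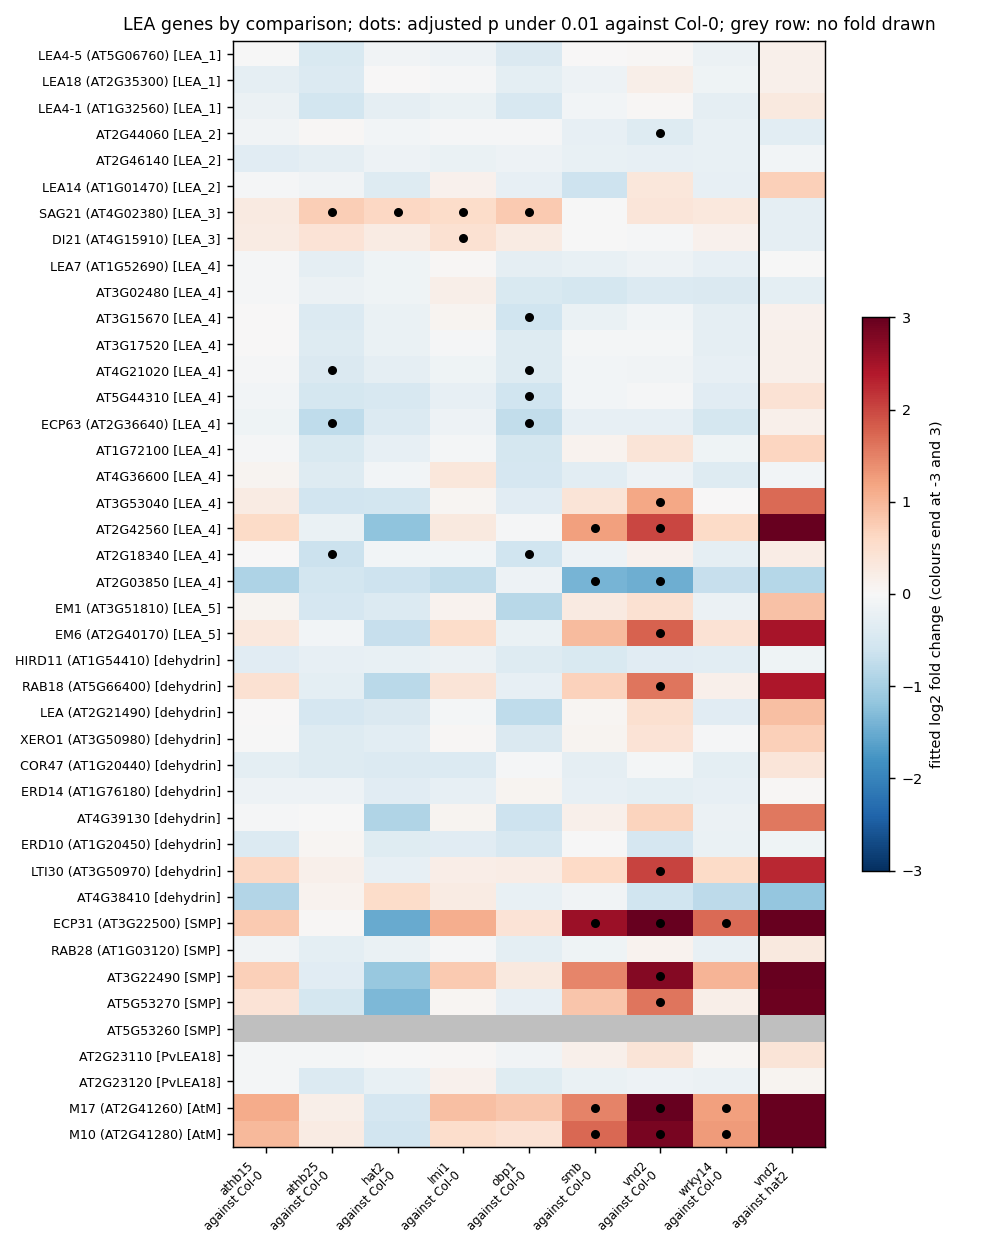
Fitted log2 fold change of the 42 tested LEA genes (rows, by class) in each mutant against Col-0 and in vnd2 against hat2 (columns), with black dots where the adjusted p against Col-0 was under 0.01; neither fold nor dot is drawn for AT5G53260, which had no count in Col-0. Dots gather in the vnd2 column at the SMP and AtM genes and, in blue, at LEA_4 genes in athb25 and in the libraries labelled obp1.

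The AtM genes M17 (AT2G41260; chromosome 2, 17206452 to 17207698, plus strand) and M10 (AT2G41280; chromosome 2, 17209697 to 17210423, plus strand), transcripts of maturing seed long used as markers of ABI3 activity, had the smallest p of the family among the 9 genotypes (edgeR adjusted p = 4.79e-09 and 2.69e-08). M17 was at 409 and 312 CPM in the vnd2 libraries, 120.5 and 111 CPM in smb and 104 and 90.3 CPM in the libraries labelled wrky14, against 51.9 and 31.8 CPM in Col-0. It was at 82.4 and 96.9 CPM in athb15, 63.8 and 90.8 CPM in lmi1, 63.3 and 81.3 CPM in the libraries labelled obp1 and 29.0 and 29.4 CPM in hat2. Both vnd2 libraries were above all others, 6 of the 8 mutants lay wholly above Col-0, hat2 lay below it and athb25 overlapped with it. All 8 are set against the same pair of Col-0 libraries. How often genes in general lie wholly above or below Col-0 was not counted. Overlap counts here and below are therefore not read as particular to a member. The log2 fold change of M17 was 3.12 (SE 0.21, edgeR adjusted p = 2.96e-08) in vnd2, 1.48 (SE 0.21, edgeR adjusted p = 0.00021) in smb and 1.23 (SE 0.21, edgeR adjusted p = 0.00215) in the libraries labelled wrky14, and M17 was not called in athb15, lmi1 or the libraries labelled obp1 (log2 1.11, 0.89 and 0.80, edgeR adjusted p = 0.0175, 0.0202 and 0.0189). M10 was at 80.8 and 60.4 CPM in vnd2, 32.5 and 32.1 CPM in smb and 24.9 and 22.6 CPM in the libraries labelled wrky14, against 11.8 and 8.07 CPM in Col-0, and lay above Col-0 in athb15 and in the libraries labelled obp1 as well, without a call. The fitted change on the log2 scale was 2.85 (SE 0.23, edgeR adjusted p = 2.95e-07) in vnd2, 1.72 (SE 0.24, edgeR adjusted p = 0.000165) in smb and 1.28 (SE 0.24, edgeR adjusted p = 0.00469) in the libraries labelled wrky14. The vnd2 calls of both genes were kept when each of the 4 libraries was left out. In smb M10 lost its call without Col-0 replicate 2 (log2 1.45, edgeR adjusted p = 0.01). In the libraries labelled wrky14 the M10 call was lost without any one of the 4 libraries and the M17 call without all but Col-0 replicate 1, with the weakest values without Col-0 replicate 2 (M10 1.01, edgeR adjusted p = 0.0958; M17 0.91, edgeR adjusted p = 0.0519). In bulk seed, fewer cells of a type and less RNA per cell cannot be told apart.

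Genes for seed reserves, the cruciferins, 2S albumins and oleosins of the dry embryo, were called in the lines where M17 and ECP31 were called, and in hat2. Of the 12 listed, 10 were called higher in vnd2 (1.97% of all genes), 6 in smb (0.618%) and 1 in the libraries labelled wrky14 (0.246%). In hat2 8 were called lower (0.267% of all genes). In hat2 0 LEA members were called lower. In athb25 and the libraries labelled obp1, 3 and 5 LEA members were called lower (0.639% and 1.41% of all genes). There 0 of the 12 reserve genes were called (medians 0.09 and 0.04), and 0 in athb15 and lmi1. Their summed level was 12500 and 7414 CPM in the vnd2 libraries, 4931 and 5404 CPM in smb, 3942 and 3205 CPM in the libraries labelled wrky14 and 1026 and 927 CPM in hat2, against 2297 and 1892 CPM in Col-0. None of the 12 was at 0 in any library. The order of these sums, vnd2 above smb, the libraries labelled wrky14, Col-0 and hat2, is also that of M17 and ECP31 means in these 5 genotypes. It does not hold over all 9. Mean sums were 2907 CPM in athb15 and 2738 CPM in lmi1, where ECP31 means were 13.95 and 17.59 CPM. They were 2394 CPM in athb25 and 2249 CPM in the libraries labelled obp1, where M17 means were 46.7 and 72.3 CPM. The part of seed reserve level in the LEA result was not tested.

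**Figure D3:**
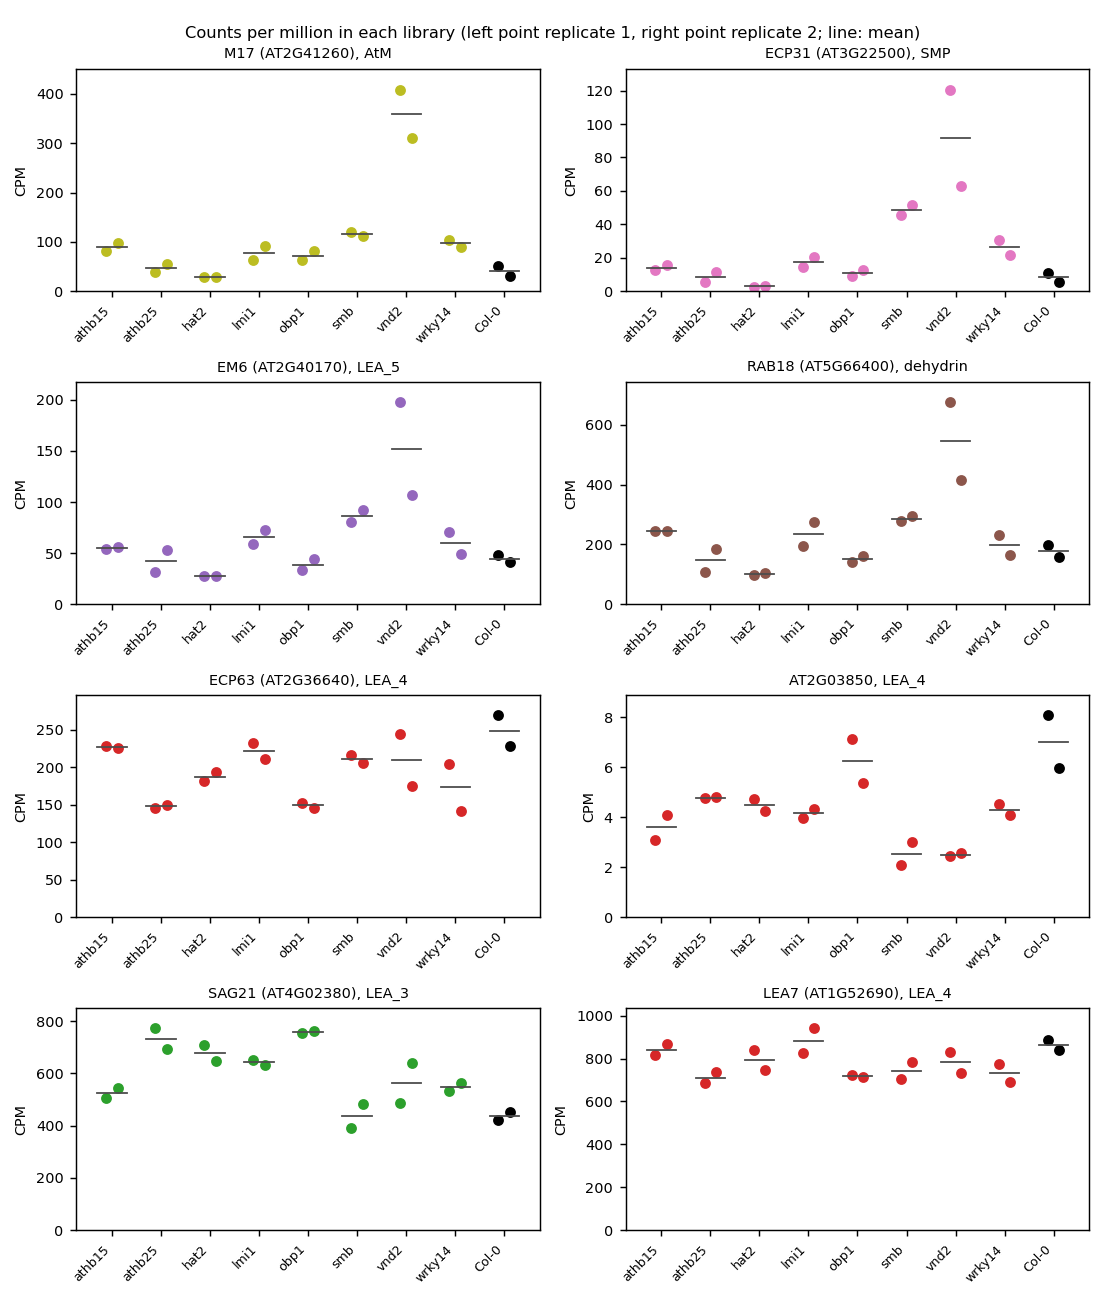
Level in CPM of 8 LEA genes in every library, with the mutant lines to the left and Col-0 in black at the right, and a line at the mean of each pair. M17, ECP31, EM6 and RAB18 are highest in both vnd2 libraries, and LEA7 stays between 684 and 941 CPM in all 18. SAG21 lies above Col-0 without overlap in 7 of the mutants, and ECP63 below it in 6, athb25 and the libraries labelled obp1 among them in both cases.

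Large ranges were seen in the SMP class. ECP31 (AT3G22500; chromosome 3, 7971625 to 7972907, minus strand), named after a protein of embryogenic carrot cells, was at 121 and 63.2 CPM in vnd2, 45.3 and 51.4 CPM in smb, 30.9 and 21.9 CPM in the libraries labelled wrky14 and 2.62 and 3.14 CPM in hat2, against 11.2 and 5.61 CPM in Col-0. The first 3 of these genotypes lay above Col-0 without overlap, as did athb15 and lmi1, and the hat2 libraries were the lowest of all 18. The fitted change on the log2 scale was 3.49 (SE 0.32, edgeR adjusted p = 1.27e-06) in vnd2, 2.57 (SE 0.33, edgeR adjusted p = 8.08e-05) in smb and 1.70 (SE 0.34, edgeR adjusted p = 0.00797) in the libraries labelled wrky14. The calls in vnd2 and smb were kept without each library in turn, whereas that in the libraries labelled wrky14 was lost under the DESeq2 Wald test (DESeq2 adjusted p = 0.0152) and without any one of the 4, with values from 1.25, edgeR adjusted p = 0.132 without Col-0 replicate 2 to 2.26, edgeR adjusted p = 0.0116 without Col-0 replicate 1. In hat2 the value of ECP31 was -1.51 and was not called (edgeR adjusted p = 0.0898).

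AT3G22490, the SMP gene next to ECP31 on chromosome 3, was at 32.0 and 14.7 CPM in vnd2, against 3.87 and 3.15 CPM in Col-0, a log2 difference of 2.76 (SE 0.30, edgeR adjusted p = 5.61e-06), and in smb it was called by DESeq2 alone (log2 1.47, edgeR adjusted p = 0.0113, DESeq2 adjusted p = 0.00849). Without vnd2 replicate 1 the vnd2 value of AT3G22490 was 2.08, edgeR adjusted p = 8.88e-06. AT5G53270 was at 4.95 and 3.87 CPM in vnd2, against 1.96 and 1.02 CPM in Col-0, a log2 difference of 1.61 (SE 0.25, edgeR adjusted p = 0.000292), and lost the call without Col-0 replicate 2 (log2 1.18, edgeR adjusted p = 0.0168). Neither gene overlapped between vnd2 and Col-0. AT5G53260, the neighbour of AT5G53270, had 13 and 6 counts in vnd2, against 0 and 0 in Col-0. It was admitted to the test by its vnd2 and smb libraries, and no fold or call is given for it. The SMP gene RAB28 ran from 10.6 RPKM in the libraries labelled obp1 to 13.9 RPKM in vnd2 and was not called in any comparison, with a log2 fold change of 0.10 in vnd2.

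The Em genes of class LEA_5 differed from each other. EM6 (AT2G40170; chromosome 2, 16779552 to 16780368, minus strand; RefSeq symbol GEA6), which shapes water loss in the maturing seed, was at 197 and 107 CPM in vnd2, against 48.0 and 41.2 CPM in Col-0, with a log2 difference of 1.78 (SE 0.24, edgeR adjusted p = 7.08e-05) that kept its call without each library in turn. In smb it was at 80.1 and 92.2 CPM, above both Col-0 libraries as in athb15, lmi1 and the libraries labelled wrky14, but was not called (log2 0.96, SE 0.24, edgeR adjusted p = 0.0279). EM1 (AT3G51810; chromosome 3, 19214722 to 19215831, plus strand) was at 206 and 106 CPM in vnd2, against 126 and 101 CPM in Col-0. The vnd2 duplicates lay on either side of the higher Col-0 library, and EM1 was not called in any mutant (log2 0.47, SE 0.22, edgeR adjusted p = 0.22 in vnd2). Its lowest values were 60.6 and 67.2 CPM in the libraries labelled obp1, where the log2 fold change was -0.83 (SE 0.23, edgeR adjusted p = 0.0277).

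Of 10 dehydrins 2 were called higher in vnd2, where 1.97% of all genes were. Over the 8 mutants edgeR called 2 and DESeq2 5 of 80 dehydrin tests, and edgeR called 0.147% to 4.13% of all genes per mutant. RAB18 (AT5G66400; chromosome 5, 26518277 to 26519447, minus strand) was at 675 and 417 CPM in vnd2, against 198 and 159.5 CPM in Col-0, with the remaining 14 libraries from 99.3 CPM in hat2 replicate 1 to 295 CPM in smb replicate 2. The vnd2 libraries were above all others, and the log2 fold change was 1.61 (SE 0.22, edgeR adjusted p = 9.78e-05), called without each library in turn. LTI30, a cold-induced dehydrin, was at 5.58 and 3.61 CPM in vnd2, against 1.00 and 1.25 CPM in Col-0, with 2.02 (SE 0.41, edgeR adjusted p = 0.00333). That call was lost without vnd2 replicate 1 (log2 1.66, edgeR adjusted p = 0.0362), Col-0 replicate 1 (1.89, edgeR adjusted p = 0.0394) or Col-0 replicate 2 (2.20, edgeR adjusted p = 0.0323). The cold- and drought-induced dehydrins COR47, ERD10 and ERD14 were not called in any mutant by either tool. HIRD11, the most abundant dehydrin on the RPKM scale, ran from 252 RPKM in smb to 344 RPKM in Col-0 and was called lower in smb by DESeq2 alone (log2 -0.45, edgeR adjusted p = 0.0279, DESeq2 adjusted p = 0.00413). XERO1 was likewise called by DESeq2 alone, higher in vnd2 (log2 0.40, edgeR adjusted p = 0.0277, DESeq2 adjusted p = 0.00999) and lower in the libraries labelled obp1 (-0.43, edgeR adjusted p = 0.0194, DESeq2 adjusted p = 0.00611).

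In the LEA_4 class 13 of 18 members were tested and calls went in both directions. AT2G42560 (chromosome 2, 17714638 to 17716912, minus strand) was at 134 and 81.6 CPM in vnd2 and 62.7 and 63.5 CPM in smb, against 31.7 and 22.7 CPM in Col-0. The fitted change on the log2 scale was 2.00 (SE 0.23, edgeR adjusted p = 1.11e-05) in vnd2 and 1.22 (SE 0.23, edgeR adjusted p = 0.00303) in smb. The smb call was lost without smb replicate 1 (log2 1.23, edgeR adjusted p = 0.0187), smb replicate 2 (1.22, edgeR adjusted p = 0.0282) or Col-0 replicate 2 (0.99, edgeR adjusted p = 0.0862). AT3G53040 was at 143 and 89.1 CPM in vnd2, against 59.5 and 45.1 CPM in Col-0, with 1.16 (SE 0.19, edgeR adjusted p = 0.000605). It lost the call without vnd2 replicate 1 (log2 0.78, edgeR adjusted p = 0.0118) or Col-0 replicate 2 (0.97, edgeR adjusted p = 0.0234). AT2G03850 ran the other way: it was at 2.44 and 2.56 CPM in vnd2 and 2.07 and 3.004 CPM in smb, against 8.07 and 5.95 CPM in Col-0. It fell by 1.47 in vnd2 (log2, SE 0.20, edgeR adjusted p = 6.81e-05) and by 1.40 in smb (log2, SE 0.20, edgeR adjusted p = 0.000218), and both calls were kept without each library in turn. It lay below Col-0 without overlap in 7 of the 8 mutants, the libraries labelled obp1 being the exception. HIRD11 and the LEA_2 gene AT2G46140 also lay below Col-0 in 7 of the 8, and edgeR called neither in any mutant.

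Called falls of LEA_4 genes were most frequent in athb25 and in the libraries labelled obp1. All 13 tested LEA_4 genes had log2 fold changes below 0 in both, with class medians of -0.43 and -0.46, and 3 and 5 of them were called lower. Of all genes tested, 0.639% in athb25 and 1.41% in the libraries labelled obp1 were called lower, and 49.9% and 46.5% were above 0. By DESeq2 AT3G17520 was called lower in both as well, and AT3G15670 in athb25. In hat2 all 13 were below 0 too (median -0.26), with 0 called by edgeR, 1 (AT2G42560) by DESeq2 and 6 at an unadjusted p under 0.05 in edgeR. In the libraries labelled wrky14 11 of the 13 were below 0 (median -0.28), with 0 called by edgeR or DESeq2. There 11 were at an unadjusted p under 0.05 in edgeR, against 11 in athb25 and 10 in the libraries labelled obp1. The share of all genes at that threshold was not counted. In smb 10 of the 13 were below 0 (median -0.16). Of all genes tested, 46.8% in hat2, 50.2% in the libraries labelled wrky14 and 51.5% in smb were above 0. The summed LEA_4 level was 3202 and 3461 CPM in athb25 and 3198 and 3145 CPM in the libraries labelled obp1, against 4490 and 4218 CPM in Col-0, without overlap. It was also below Col-0 without overlap in hat2 (3784 and 3655 CPM), smb (3760 and 3989 CPM) and the libraries labelled wrky14 (3874 and 3242 CPM). ECP63 (AT2G36640; chromosome 2, 15356830 to 15358619, minus strand), like ECP31 named after carrot embryogenic cells, was at 146 and 150.0 CPM in athb25 and 153 and 146 CPM in the libraries labelled obp1, against 269 and 229 CPM in Col-0. ECP63 lay below Col-0 without overlap in 6 of the 8 mutants, the others being lmi1 and vnd2. It had the largest called fall in athb25 and in the libraries labelled obp1, -0.75 (SE 0.14, edgeR adjusted p = 0.00444) in athb25 and -0.74 (SE 0.14, edgeR adjusted p = 0.00284) in the libraries labelled obp1. AT2G18340 and AT4G21020 were called lower in both as well, with -0.65 and -0.43 in athb25 and -0.59 and -0.39 in the libraries labelled obp1. AT3G15670 and AT5G44310 were called lower in the libraries labelled obp1, at -0.60 each on the log2 scale. Each of these 3 calls in athb25 was lost without any one of the 4 libraries, down to -0.34, edgeR adjusted p = 0.133 for AT4G21020 without Col-0 replicate 1. In the libraries labelled obp1 the AT2G18340, AT4G21020 and AT3G15670 calls were lost without any one library, and those of ECP63 and AT5G44310 without any but Col-0 replicate 2, for example AT5G44310 at -0.40, edgeR adjusted p = 0.109 without Col-0 replicate 1. LEA7 was not called in any mutant, with 684 and 739 CPM in athb25 and 723 and 713 CPM in the libraries labelled obp1, against 888 and 838 CPM in Col-0.

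SAG21 (AT4G02380; chromosome 4, 1046042 to 1047105, minus strand) of class LEA_3 was called higher in 4 lines. It was at 772 and 694 CPM in athb25, 707 and 649 CPM in hat2, 650.4 and 632 CPM in lmi1 and 755 and 762 CPM in the libraries labelled obp1, against 421 and 454 CPM in Col-0. None of these 8 libraries overlapped with Col-0. It was at 506 and 546 CPM in athb15, 488 and 639.8 CPM in vnd2 and 531 and 562 CPM in the libraries labelled wrky14, so that 7 of the 8 mutants lay above the same Col-0 libraries and smb alone overlapped with them. On the log2 scale athb25 differed by 0.74 (SE 0.11, edgeR adjusted p = 0.000696), hat2 by 0.63 (SE 0.11, edgeR adjusted p = 0.00344), lmi1 by 0.55 (SE 0.11, edgeR adjusted p = 0.00668) and the libraries labelled obp1 by 0.79 (SE 0.11, edgeR adjusted p = 0.00016). Only the last of these calls was kept without each library in turn. In athb25 it was lost without athb25 replicate 1 (0.66, edgeR adjusted p = 0.019) or Col-0 replicate 1 (0.69, edgeR adjusted p = 0.0257), in hat2 without hat2 replicate 1, Col-0 replicate 1 or Col-0 replicate 2 (down to 0.59, edgeR adjusted p = 0.0716, without Col-0 replicate 1), and in lmi1 without any one library (down to 0.49, edgeR adjusted p = 0.114, without Col-0 replicate 1). In vnd2 SAG21 was not called by edgeR (log2 0.37, SE 0.11, edgeR adjusted p = 0.0373) but was called by DESeq2 (DESeq2 adjusted p = 0.00964). DI21, a drought-induced gene of the same class, was at 232 and 242 CPM in lmi1, against 161 and 185 CPM in Col-0, with 0.45 (SE 0.09, edgeR adjusted p = 0.00929), a call lost without any one of the 4 libraries (down to 0.35, edgeR adjusted p = 0.17, without Col-0 replicate 1), and in athb25 it was called by DESeq2 alone (log2 0.41, edgeR adjusted p = 0.0146, DESeq2 adjusted p = 0.0013). Beside these values, of 7 genes for light harvesting and the Rubisco small subunit, which mark the greening seedling, 4 were called higher in the libraries labelled obp1 (3 by DESeq2), 1 in hat2 and 1 in lmi1 (2 each by DESeq2) and 0 in athb25 (4 at an unadjusted p under 0.05 in edgeR, 0 by DESeq2). Of all genes, edgeR called higher 2.51% in the libraries labelled obp1, 0.393% in hat2, 0.476% in lmi1 and 0.984% in athb25. The summed level of the 7 genes was 3503 and 4017 CPM in athb25, 4126 and 3672 CPM in hat2, 4325 and 3329 CPM in lmi1 and 3966 and 4404 CPM in the libraries labelled obp1, against 2899 and 3130 CPM in Col-0. Their part in the SAG21 result was not tested.

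The remaining classes had few tests, and their counts are not read as a difference between classes. Of all genes tested, edgeR called 0.147% (athb15) to 4.13% (vnd2) per mutant. Over the 8 mutants 0 of 24 tests of LEA_1 genes were called by edgeR or DESeq2, with 5 at an unadjusted p under 0.05. LEA4-5 was at 925 and 631 CPM in vnd2, 512 and 589 CPM in athb25 and 547 and 576 CPM in the libraries labelled obp1, against 775 and 734 CPM in Col-0. The vnd2 duplicates lay on either side of Col-0, whereas both other pairs lay below it without a call (log2 -0.45, SE 0.15, edgeR adjusted p = 0.0777 in athb25 and log2 -0.43, SE 0.15, edgeR adjusted p = 0.0741 in the libraries labelled obp1). Of 16 tests of PvLEA18 genes 0 were called by edgeR and 1 by DESeq2, with 3 at an unadjusted p under 0.05 in edgeR. The LEA_2 protein gene AT2G44060 was lower in vnd2, at 105 and 100.1 CPM, against 139.8 and 129 CPM in Col-0, a log2 difference of -0.39 (SE 0.06, edgeR adjusted p = 0.000367) that was lost without Col-0 replicate 1 (-0.33, edgeR adjusted p = 0.0142). LEA14, a folded LEA_2 protein of the salt and light stress response, was at 19.8 and 14.5 CPM in vnd2 and 7.37 and 10.1 CPM in smb, against 13.1 and 14.2 CPM in Col-0. It was not called in any mutant, with 0.33 in vnd2 and -0.62 in smb.

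In vnd2 the members that rose were mostly those of lower level per length. Of 29 tested members with a mean under 200 RPKM 10 were called higher and 2 lower (9 and 2 of 28 without AT5G53260), with a median log2 fold change of 0.39. Of the 13 members at 200 RPKM or more, RAB18 alone was called by edgeR (DESeq2 called SAG21 too), and their median was -0.04. The mean that places RAB18 there, 213 RPKM, takes in the vnd2 libraries. RAB18 was at 501 RPKM in vnd2 and at 164 RPKM in Col-0, under the split. For smb, the members under 200 RPKM had 4 called higher and 1 lower, and those at 200 RPKM or more had 0 called by edgeR (1 by DESeq2, and 4 at an unadjusted p under 0.05 in edgeR). Their medians were 0.08 (0.06 without AT5G53260) and -0.09. The split at 200 RPKM was chosen after the values were known, and is a description with no test of the difference. The sum over all 50 members therefore changed less than M17 or ECP31 did: it was 10190 and 7844 CPM in vnd2, against 8312 and 7753 CPM in Col-0, and the vnd2 duplicates lay on either side of the higher Col-0 library.

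**Figure D4:**
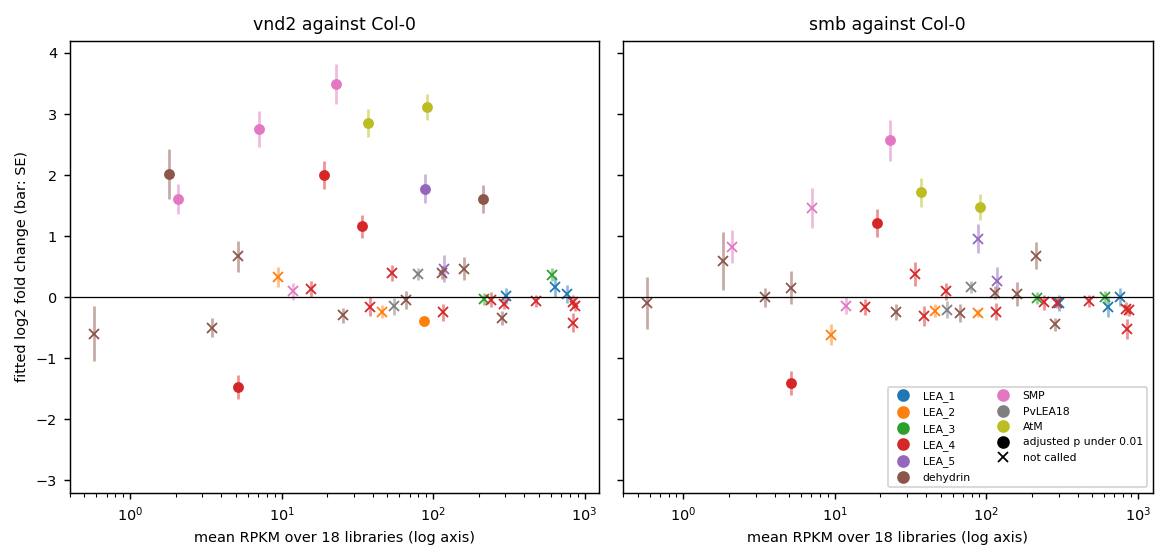
Fitted log2 fold change (bars: standard error) against mean RPKM over 18 libraries on a log axis, for 41 tested LEA genes in vnd2 (left) and smb (right) against Col-0; AT5G53260 is left out because it had no count in Col-0. Filled points above a log2 fold change of 1 lie below 100 RPKM, except for RAB18 in the vnd2 panel. Its mean of 213 RPKM takes in the vnd2 libraries (501 RPKM, against 164 RPKM in Col-0). Genes above 400 RPKM lie between -0.52 and 0.37 in both panels.

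The vnd2 and hat2 libraries were also set beside each other, without Col-0. This pair does not share the Col-0 libraries, and hat2 is the line that the study found not to germinate late. It was chosen with earlier results of these data known, in which several members lay at opposite ends. Its values are therefore a description and nothing is read from its test. Of 42 members 17 passed the threshold, 16 higher and 1 lower in vnd2 (16 of 41 without AT5G53260), where 5.63% of all genes did (2.92% higher and 2.71% lower). AT2G42560 was at 134 and 81.6 CPM in vnd2, against 10.004 and 13.6 CPM in hat2, a log2 difference of 3.20 (SE 0.24). The same difference was 5.004 (SE 0.37) for ECP31, 3.63 (SE 0.22) for M17 and 2.47 (SE 0.25) for EM6. The dehydrin XERO1 was at 128 and 96.2 CPM in vnd2, against 67.0 and 69.5 CPM in hat2. The dehydrins AT4G39130 and LEA had log2 differences of 1.58 and 0.89, the LEA_4 gene AT1G72100 0.65 and LEA14 0.72, and without vnd2 replicate 1 these were 1.12, 0.43, 0.32 and 0.47. The LEA_2 gene AT2G44060 was lower in vnd2 than in hat2 (-0.31, SE 0.06), and AT5G53260 had 13 and 6 counts in vnd2, against 0 and 1 in hat2.

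Of 23 listed regulators, the B3 and LEC1-type factors of maturation, the bZIP factors that bind ABA response elements, the CBF cold factors and the AFP repressors of ABI5, 17 were tested. In vnd2 3 of the 17 were called (17.6%), against 4.13% of all genes, and among the 9 genotypes 4 (23.5%), against 11.9% of all genes. ABI3 and ABI5, the main activators in seed, were not called in any mutant, with log2 fold changes in vnd2 of 0.04 (SE 0.07, edgeR adjusted p = 0.765) and 0.06 (SE 0.08, edgeR adjusted p = 0.721). In vnd2 the bZIP gene EEL was called higher, at 28.9 and 22.9 CPM against 18.5 and 18.4 CPM in Col-0 (log2 0.50, SE 0.10, edgeR adjusted p = 0.00373), and 2 regulators were called lower, ABF3 (log2 -0.55, SE 0.13, edgeR adjusted p = 0.00991) and AFP3 (log2 -0.44, SE 0.10, edgeR adjusted p = 0.00609). The AFP3 call was lost under DESeq2 (DESeq2 adjusted p = 0.0125). Each of these calls rested on single libraries: EEL lost it without vnd2 replicate 1 (0.32, edgeR adjusted p = 0.0768) or either Col-0 library, ABF3 without vnd2 replicate 2 (-0.38, edgeR adjusted p = 0.141) or either Col-0 library, and AFP3 without Col-0 replicate 1 (-0.31, edgeR adjusted p = 0.115) or either vnd2 library. In the other 7 mutants 0 of the 17 were called by edgeR or by DESeq2, with 18 of 119 tests at an unadjusted p under 0.05 in edgeR. The 4 endosperm genes, which mark the tissue around the embryo, were called in 0 of 32 tests in the mutants by edgeR and in 2 by DESeq2, with 11 at an unadjusted p under 0.05 in edgeR. With edgeR, 0.147% to 4.13% of all genes were called per mutant.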

How the data were processed

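Poly(A) RNA-seq libraries were made with a stranded kit from 18 samples of germinating seed and sequenced on one flow cell. Per the labels and methods, the authors trimmed reads with Trim Galore 0.4.2, aligned them to TAIR10 with HISAT2 2.0.5 and assigned them to Araport11 genes with featureCounts 1.5.1, and deposited whole-number counts per gene, not normalized. Strand setting and treatment of reads with several matches are not given in the sources used here. After filterByExpr (19100 genes) and TMM scaling, a single genotype model over the 18 libraries was fitted in edgeR 4.0.16 (R 4.3.3). A call meant an adjusted p under 0.01 (quasi-likelihood test, Benjamini-Hochberg over those genes). The standard error was the log2 fold change divided by the square root of F. CPM used TMM-scaled totals, and RPKM added exon length. The common biological coefficient of variation was 5.87%. Intervals and floors cover counting error only.

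Duplicates differed by more than sampling noise (chi-square per degree of freedom 2.27 to 10.41), so that none was 1 library deposited again. On simulated counts for vnd2 against Col-0, 59%, 90% and 96.5% of 200 genes changed by 0.5, 1 and 2 on the log2 scale were recovered among 19006, 18978 and 19009 genes, with 2, 2 and 0 false calls. The simulation gave every gene the same spread of 5.87% and no shift between duplicates. The vnd2 duplicates differed by a median ratio of 1.355 over the members, so that recovery and false calls among LEA genes were not measured by it. Gene coordinates are those of the deposited table. RefSeq TAIR10.1 matched 37051 of 37336 identifiers, 99.51% with the same coordinates, and all 50 members had the same ones.

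Members, gene lists, the comparison of vnd2 with hat2 and the rule for naming genes were chosen with earlier results of these data known. The rule allowed any member, with values of every library for EM1, EM6, RAB18, COR15A, COR15B, ECP63, LEA4-5, ECP31, M10, M17 and LEA14, and it named the most abundant member of each class, the 10 members with the smallest p among genotypes, and the largest called rise and fall per comparison. Alternatives were DESeq2 size factors, the DESeq2 1.42.0 Wald test, no count filter, a replicate block, and leaving out each library. A block with crossed numbers and counts without AT5G53260 were added after seeing the data.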

Additional observations from a re-analysis of the deposited data

How the results depend on the processing

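Under DESeq2 size factors all 34 called tests of members against Col-0 kept their direction and call, and no called member changed sign under any alternative. The 17 of vnd2 against hat2 did so too. Counts below that are taken over all 51 called tests include that pair and AT5G53260, from whose tests nothing is read. The DESeq2 Wald test kept 47 of 50 with an adjusted p, and lost ECP31 in the libraries labelled wrky14 and LEA and AT5G53260 in vnd2 against hat2. Leaving out AT5G53260, chosen after seeing the data, took 1 call each from vnd2, vnd2 against hat2 and the 9 genotypes. Without a count filter (26321 genes) the 51 calls stood and many more members were called: 26 in vnd2 against hat2, 23 in vnd2, 13 in smb, 17 in the libraries labelled wrky14, 23 in the libraries labelled obp1, 11 in lmi1, 20 in hat2, 22 in athb25 and 9 in athb15. In that fit edgeR's prior degrees of freedom were infinite, against 9.57 with the filter. The DESeq2 Wald test called 7 members in athb25 and 2 in hat2.

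Replicate numbers were not treated as pairs in the main fit. The correlation of the duplicates' deviations with those of Col-0 was -0.168 to 0.214, and the mutants were not compared with each other in this way. The replicate block kept 48 of the 51 calls and lost DI21 in lmi1 (adjusted p = 0.013), AT4G21020 in the libraries labelled obp1 (0.0109) and ECP31 in the libraries labelled wrky14 (0.0119). With it 1 member was called in lmi1 instead of 2, and counts in the other comparisons stayed within 1.5 times. A block with crossed numbers for hat2, lmi1 and vnd2, added after seeing the data, called 1, 2 and 13 members.

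With 1 library left out, the lone library was assumed to vary like the other groups, and 119 of 204 repeats of a called test were kept. The number of members called ranged from 0 to 1 each in athb15, athb25, hat2 and the libraries labelled wrky14, from 0 to 0 in lmi1, from 1 to 3 in the libraries labelled obp1, from 3 to 5 in smb, from 9 to 18 in vnd2, from 12 to 18 in vnd2 against hat2 and from 18 to 33 among the 9 genotypes. Of the called members 8 of 13 in vnd2, 10 of 17 in vnd2 against hat2, 3 of 5 in smb and 1 of 6 in the libraries labelled obp1 were kept in all 4 fits, and none in athb25, hat2, lmi1 or the libraries labelled wrky14. Depth limits the 8 members not tested and AT5G53260, which held 61 counts in all.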
